A study of Arabidopsis thaliana with 12 samples.

Results

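The genes described here are the LSM genes of Arabidopsis thaliana that the platform annotation names: LSM1A, LSM1B, LSM3A, LSM3B, LSM6A and LSM6B. Each was chosen as the gene that 1 probe set names alone, so that 6 probe sets of 22810 on the array are members. The rule uses names and no measured value, but the group of genes was picked for description with earlier results of these data known. The tested seedlings were the line 46T after dehydration, 46T without treatment, wild type (WT, Col-0) after dehydration and WT without treatment, with 3 arrays in each of the 4 groups and 12 arrays in all. Per the labels, 46T overexpresses the transcription factor WRKY46. The labels name no promoter, and 1 line stands for overexpression. Whole seedlings were 1 week old in every group, and dehydration meant 1 h on dry paper under dim light, at a humidity of 60% and a temperature of 22 °C. Where the labels do not say how the 3 biological replicates were raised, p-values measure the spread between these samples. In whole seedlings, fewer cells that express a gene and less of its RNA per cell cannot be told apart.

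LSM proteins are small Sm-like proteins that assemble into rings which hold on to the 3' ends of RNA. As background, plants build a cytoplasmic ring that contains LSM1 and a nuclear ring that contains LSM8 in its place, while LSM3 and LSM6 are subunits of both. The cytoplasmic ring helps to remove the cap of mRNAs that have lost their poly(A) tail, so that they are degraded, and in Arabidopsis it gathers in processing bodies under stress. The nuclear ring stabilises U6 snRNA, a core RNA of the spliceosome. LSM1A and LSM1B are duplicate genes with redundant roles in Arabidopsis, and LSM3 and LSM6 are each encoded by a pair of genes as well.

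In the gene table of RefSeq for assembly TAIR10.1, the genes lie on 3 chromosomes. LSM1A (AT1G19120) spans chromosome 1, positions 6608115 to 6609369. LSM1B (AT3G14080) spans chromosome 3, positions 4667308 to 4669194. Both belong to the decay ring alone. LSM3A (AT1G21190) spans chromosome 1, positions 7419664 to 7420957, and LSM3B (AT1G76860) spans chromosome 1, positions 28854414 to 28855750. LSM6A (AT3G59810) spans chromosome 3, positions 22096469 to 22097966, and LSM6B (AT2G43810) spans chromosome 2, positions 18149197 to 18151295. Each gene has 1 probe set, and cross-hybridisation between the members of a pair was not tested. The values are log2 MAS5 signals, which rank a probe set between arrays. Levels of different probe sets are not compared.

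All 6 members passed the filter on low values. The mean signals of the members lay between the 59.2nd percentile (LSM1B) and the 86.2nd percentile (LSM1A) of all probe sets that are not controls. The spread between replicates was smallest for LSM6A, with a residual SD of 0.15 on the log2 scale, and widest for LSM6B, with 0.44, against a median of 0.26 over 14495 tested probe sets. Both WT control replicates 1 and 2 stood apart: their root mean square deviations from the group mean over tested probe sets were 0.48 and 0.41 on the log2 scale, against 0.18 to 0.28 on the other 10 arrays. Replicate 1 held the highest of the 12 values for 5 of the 6 members, all but LSM1B. It was the highest for 18.1% and the lowest for 29.3% of all tested probe sets, and the Spearman correlation of replicates 1 and 2 with each other was 0.910, against 0.969 or more within each of the other groups. The dehydration differences in WT are therefore also given without replicate 1 below, and without replicate 2 where that changes a call. A pair of RNA measures differed between the lines in dehydrated seedlings and overlapped in control seedlings. The GAPDH 3' minus 5' log2 difference, a measure of how far labelling reached along the RNA, was 1.114 to 1.225 in dehydrated 46T against 0.828 to 0.915 in dehydrated WT, and 1.101 to 1.277 in 46T control against 0.782 to 1.208 in WT control. The poly-A labelling controls averaged 7.71 to 7.92 in dehydrated 46T against 8.10 to 8.62 in dehydrated WT on the log2 scale, and 7.76 to 7.94 in 46T control against 7.78 to 8.85 in WT control, and the part of either measure in the results was not tested. The stress regulator gene STZ rose in dehydrated seedlings of both lines, by 4.72 ± 0.36 in 46T and 3.93 ± 0.36 in WT (SE, limma adjusted p = 9.0e-07 and 6.4e-06). It was listed with earlier results of these data known, so its rise is no independent check of the treatment. Of the 3 tested genes listed as dehydration responders, 3 rose in 46T and 2 in WT, where COR47 was at 0.31 ± 0.23 (adjusted p = 0.438). Of the leaf and root marker genes listed as a check of the tissue, none is named by a probe set here.

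The LSM1 pair, the subunits specific to the decay ring, differed from control in opposite directions after dehydration in both lines, and 1 of these 4 differences, the fall of LSM1A in WT, passed the test. LSM1A was at 9.95, 10.16 and 10.05 in dehydrated 46T seedlings, against 10.32, 10.15 and 10.34 in 46T control seedlings. In WT it was at 9.88, 9.77 and 9.71 after dehydration, against 10.76, 10.34 and 9.97 in the control. All 3 dehydrated WT arrays lay below all 3 WT control arrays, whereas the groups of 46T overlapped. LSM1A fell in WT by 0.57 ± 0.17 on the log2 scale (SE), to 0.673-fold of the control (limma adjusted p = 0.0491). In 46T its log2 difference was -0.22 ± 0.17 (adjusted p = 0.494). The SE pools the spread of all groups, while the SD of LSM1A was 0.39 in WT control, 0.09 in WT dehydrated and 0.11 in both 46T groups. With each line fitted alone, the limma adjusted p of LSM1A was 0.188 in WT and 0.187 in 46T. The call in WT lies at the threshold. It was kept in 4 of 21 alternatives and lost in 17, and the difference was -0.37 without WT control replicate 1 (adjusted p = 0.0928), -0.58 without WT control replicate 2 (adjusted p = 0.0709) and -0.24 with array weights (adjusted p = 0.179). Of all tested probe sets, 11.6% were called on dehydration in WT: 7.29% were higher and 4.3% lower.

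LSM1B, the other LSM1 gene, had nearly identical values of 8.43, 8.43 and 8.43 in dehydrated 46T seedlings, against 7.95, 7.49 and 7.93 in 46T control seedlings. In WT it was at 8.00, 8.13 and 8.15 after dehydration, against 8.22, 7.99 and 7.34 in the control. The 46T groups did not overlap, and the WT groups did. Its log2 difference in 46T was 0.64 ± 0.21 (SE), or 1.56-fold, which missed the threshold (limma adjusted p = 0.0771, 95% interval 0.182 to 1.102). It passed in 4 of 21 alternatives, among them the fit of the 46T groups alone (adjusted p = 0.0139). Another was leaving out WT control replicate 1 (adjusted p = 0.0272), which is not part of this comparison but enters the shared spread. In WT the difference was 0.25 ± 0.21 (adjusted p = 0.515), and it depended on the control arrays. It was 0.43 without WT control replicate 1 (adjusted p = 0.162), 0.32 without replicate 2 (adjusted p = 0.387) and -0.004 without replicate 3 (adjusted p = 0.991). With array weights it was 0.69 and was called (adjusted p = 0.00926). The weights of WT control replicates 1, 2 and 3 were 0.14, 0.30 and 3.84. This value thus rests mainly on replicate 3, the control array where LSM1B was lowest (7.34). On dehydration in 46T, 10.2% of all tested probe sets were called, 6.69% as higher and 3.5% as lower, and the groups did not overlap for 40.2%.

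**Figure D1:**
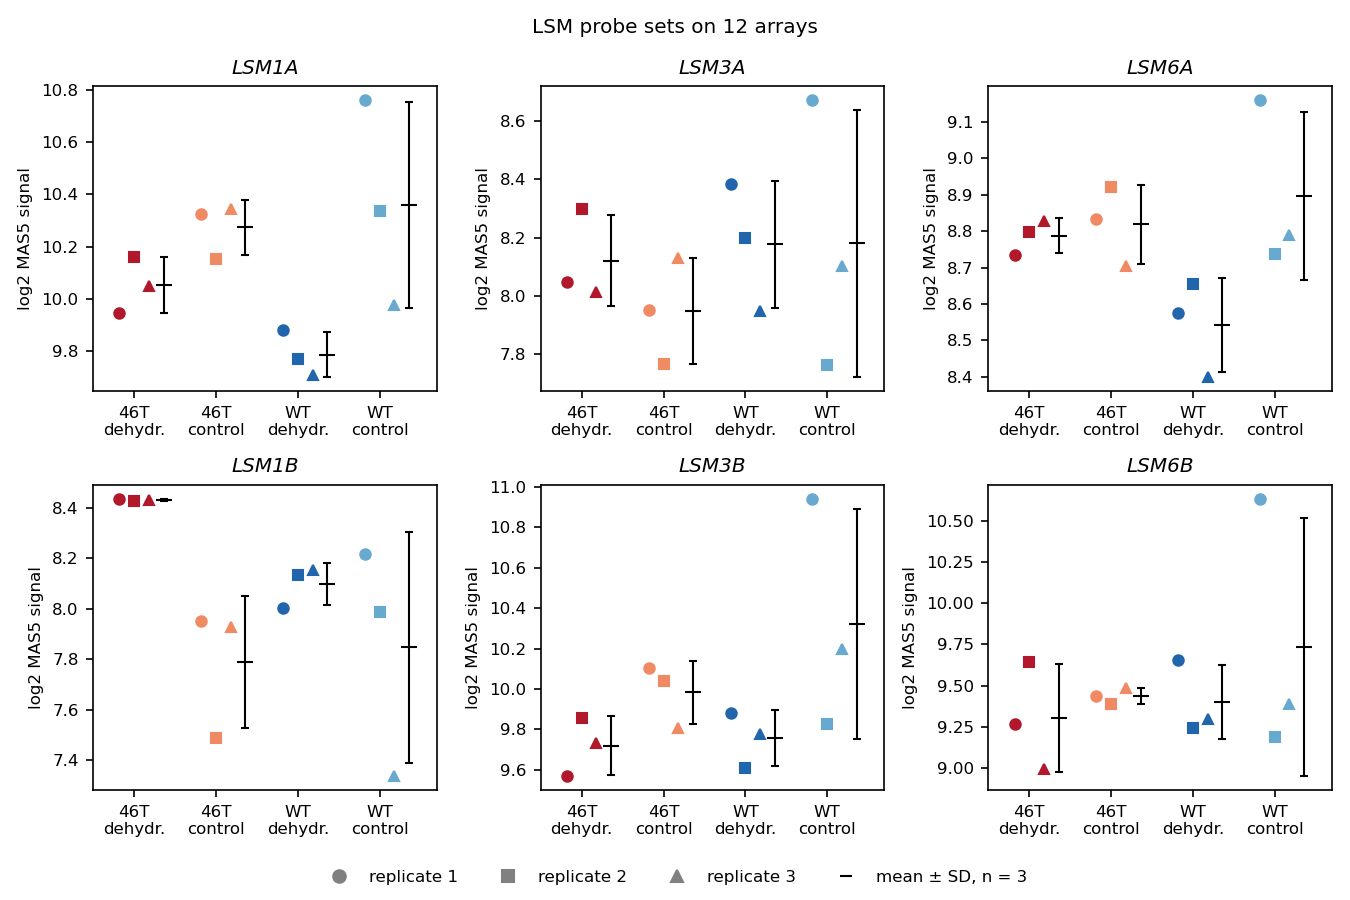
Log2 MAS5 signal of the 6 LSM probe sets on each array, by group, with the mean and SD of 3 arrays beside the points and a scale of its own in each panel. LSM1B lies at 8.43 on all 3 arrays of dehydrated 46T, above every other array, and WT control replicate 1 is the highest array for the other 5 genes.

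The 2 LSM1 genes stood apart most clearly within arrays, where an offset shared equally by both probe sets cancels and an unequal one does not. The difference of LSM1B minus LSM1A was set to a mean of 0 in WT control seedlings, since its absolute size has no meaning between probe sets. On that scale it was 1.00, 0.78 and 0.89 in dehydrated 46T seedlings, against 0.14, -0.15 and 0.09 in 46T control seedlings. It was 0.63, 0.87 and 0.96 in dehydrated WT seedlings, against -0.03, 0.16 and -0.13 in WT control seedlings. Every one of the 6 dehydrated arrays was thus above every one of the 6 control arrays, WT control replicate 1 included. Of all tested probe sets, taken singly, the groups did not overlap on dehydration for 40.2% in 46T and 26.3% in WT. The share over other pairs of probe sets was not computed, so the separation is not shown to be particular to LSM1. The mean shift on dehydration was 0.86 in 46T and 0.82 in WT, with a within-group SD of 0.15 on 8 degrees of freedom. Over all alternatives the shift stayed between 0.77 and 0.92 in 46T and between 0.75 and 0.93 in WT. Between the lines the same quantity differed by 0.07 in dehydrated and 0.03 in control seedlings, less than that SD. This measure was chosen after its values were seen and combines chosen members, so it is given as a description with no test.

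The 2 lines were then combined, in a contrast of both dehydrated groups with both control groups that was added after the values were seen. In it, LSM1A fell by 0.40 ± 0.12 (SE; limma adjusted p = 0.0304), and LSM1B rose by 0.45 ± 0.15 (adjusted p = 0.0449). LSM3B had a difference of -0.41 ± 0.16 (adjusted p = 0.0714). It was called in 2 of 20 alternatives, at -0.54 without WT control replicate 2 (adjusted p = 0.0105) and -0.35 with array weights (adjusted p = 0.00635). The other 3 members had adjusted p-values of 0.226 to 0.748. So 2 of 6 members were called, 1 in each direction, where 24.7% of all tested probe sets were called (12.2% higher and 12.4% lower), a share near that of the members. LSM1A kept its call in 13 of 20 alternatives and LSM1B in 6 of 20. Without WT control replicate 1 both kept it, with a fall of 0.30 for LSM1A (adjusted p = 0.0288) and a rise of 0.54 for LSM1B (adjusted p = 0.0081). LSM1B lost it with the replicate block (adjusted p = 0.0529), after quantile normalization (adjusted p = 0.0536), after median centring (adjusted p = 0.0958), without the filter (adjusted p = 0.0720) and on leaving out any of 10 of the 12 arrays.

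LSM3 and LSM6, which serve both the decay ring and the splicing ring, gave no call in any comparison as fitted, while LSM3B was called under some alternatives. LSM3A was at 8.05, 8.30 and 8.01 in dehydrated 46T seedlings, against 7.95, 7.77 and 8.13 in 46T control seedlings. In WT it was at 8.39, 8.20 and 7.95 after dehydration, against 8.67, 7.76 and 8.10 in the control. The groups overlapped in both lines, and the log2 differences were 0.17 ± 0.22 in 46T and -0.003 ± 0.22 in WT (SE; limma adjusted p = 0.704 and 0.995). The intervals of these differences were -0.30 to 0.65 in 46T and -0.48 to 0.47 in WT, so differences between those bounds were compatible with the data. In WT the value turned to 0.24 without WT control replicate 1 (adjusted p = 0.409).

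LSM3B, the second LSM3 gene, was at 9.57, 9.86 and 9.73 in dehydrated 46T seedlings, against 10.11, 10.04 and 9.81 in 46T control seedlings. In WT it was at 9.88, 9.61 and 9.78 after dehydration, against 10.94, 9.83 and 10.20 in the control. The dehydrated groups sat lower on average, but each overlapped its control. The differences were -0.26 ± 0.22 in 46T (SE; limma adjusted p = 0.528) and -0.57 ± 0.22 in WT (adjusted p = 0.122). The value in WT was -0.26 without WT control replicate 1 (adjusted p = 0.290), -0.81 without WT control replicate 2 (adjusted p = 0.0207) and -0.45 with array weights (adjusted p = 0.0250), so it rests on which control array is kept. Within arrays, LSM3B minus LSM3A had a mean change of -0.44 in 46T and -0.56 in WT, with a within-group SD of 0.21. The groups did not overlap in WT, as for 26.3% of all tested probe sets taken singly, and did in 46T. Over all alternatives this change stayed below 0 in both lines, between -0.615 and -0.3168 in 46T and between -0.6873 and -0.4772 in WT.

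LSM6A had the smallest spread of the members. It was at 8.73, 8.80 and 8.83 in dehydrated 46T seedlings, against 8.83, 8.92 and 8.70 in 46T control seedlings. In WT it was at 8.57, 8.65 and 8.40 after dehydration, against 9.16, 8.74 and 8.79 in the control. The WT groups did not overlap, with dehydrated seedlings lower, while the 46T groups did. The difference in WT was -0.35 ± 0.15 (SE; limma adjusted p = 0.162), and -0.22 without WT control replicate 1, while in 46T it was -0.03 ± 0.15 (adjusted p = 0.937). LSM1A and LSM6A were thus the 2 members of 6 with no overlap in WT, where the groups did not overlap for 26.3% of all tested probe sets.

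LSM6B was at 9.27, 9.65 and 8.995 in dehydrated 46T seedlings, against 9.44, 9.39 and 9.49 in 46T control seedlings. In WT it was at 9.66, 9.24 and 9.30 after dehydration, against 10.63, 9.19 and 9.39 in the control. The first WT control array lay over 1 log2 unit above the other WT controls, and the groups overlapped in both lines. The differences were -0.13 ± 0.30 in 46T and -0.34 ± 0.30 in WT (SE; limma adjusted p = 0.843 and 0.529), and the value in WT turned to 0.11 without WT control replicate 1. Within arrays, LSM6B minus LSM6A differed by -0.10 in 46T and 0.02 in WT (0.33 without WT control replicate 1), against a within-group SD of 0.36.

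**Figure D2:**
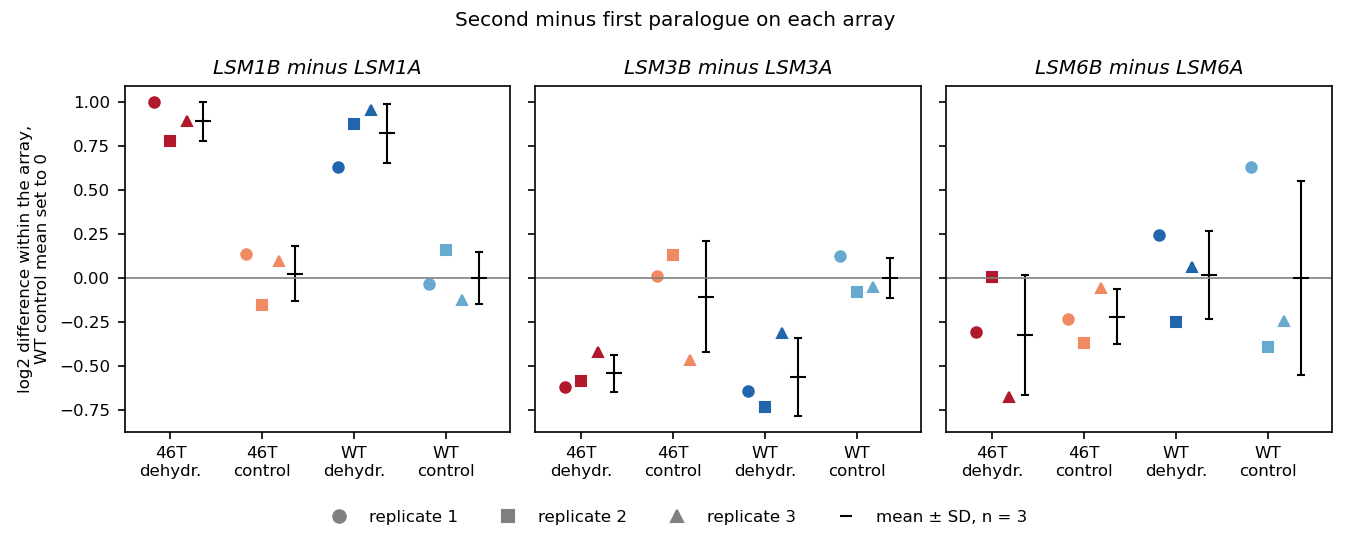
Log2 difference of the second minus the first gene of each pair within every array, with the WT control mean set to 0 and the mean and SD of 3 arrays beside the points. For LSM1 the dehydrated arrays lie between 0.63 and 1.00 and the control arrays between -0.15 and 0.16, while for LSM6 all groups overlap. For LSM3 the WT groups lie apart, at -0.73 to -0.31 after dehydration against -0.08 to 0.13 in the control. The 46T groups of LSM3 overlap, at -0.62 to -0.42 against -0.46 to 0.13.

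The LSM1 pair was next set against LSM3 and LSM6, as the subunits of one ring against those of both. The differences of LSM1A and LSM1B had opposite signs, and the mean of the 2 genes differed by 0.21 in 46T and -0.16 in WT on dehydration. The mean of the LSM3 and LSM6 genes differed by -0.07 in 46T and by -0.31 in WT. Both WT means depended on WT control replicate 1. Without it the WT values were -0.37 for LSM1A and 0.43 for LSM1B. They were then 0.24 for LSM3A, -0.26 for LSM3B, -0.22 for LSM6A and 0.11 for LSM6B. The change of the LSM1 pair minus that of the other 4 genes was 0.28 in 46T and 0.15 in WT, against a within-group SD of this score of 0.24. The WT value was 0.06 without WT control replicate 1 and ranged between 0.01 and 0.39 over the alternatives, and in 46T between 0.18 and 0.34. On single arrays the LSM1 mean minus the mean of the other 4 genes, with the WT control mean at 0, was 0.47, 0.32 and 0.53 in dehydrated 46T, against 0.24, -0.03 and 0.29 in 46T control. It was -0.002, 0.21 and 0.26 in dehydrated WT, against -0.18, 0.46 and -0.28 in WT control. The groups did not overlap in 46T and did in WT. Of all tested probe sets, taken singly, 40.2% did not overlap on dehydration in 46T and 26.3% in WT. As a score over chosen members this difference gets no test.

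**Figure D3:**
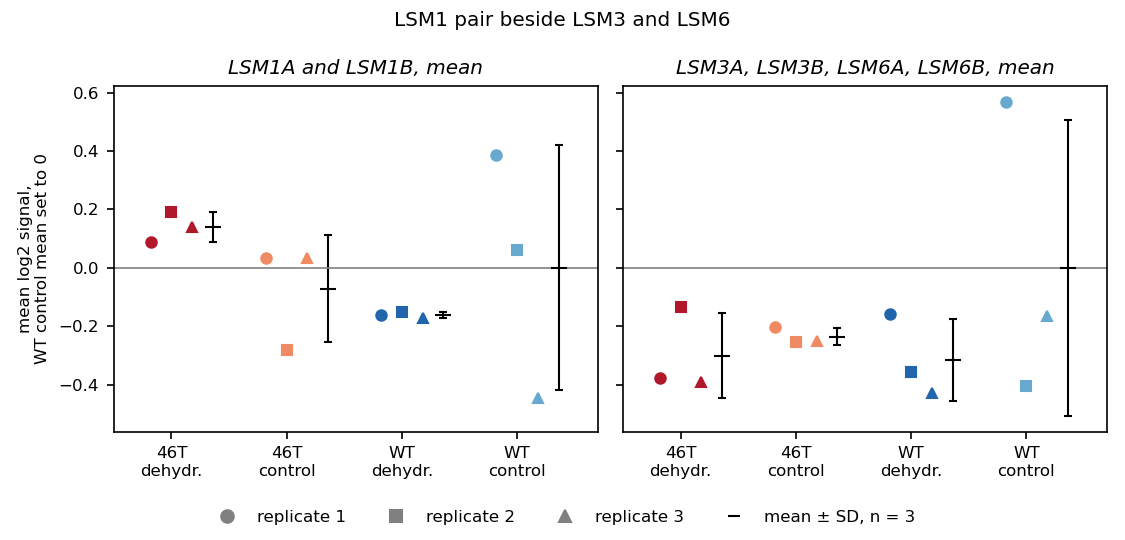
Mean log2 signal of the LSM1 pair (left) and of LSM3A, LSM3B, LSM6A and LSM6B (right) on each array, with the WT control mean set to 0 and the mean and SD of 3 arrays beside the points. WT control replicate 1 lies at 0.39 for the LSM1 pair and at 0.57 for the other 4 genes.

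None of the 6 members differed between the lines past the threshold. In dehydrated seedlings the log2 differences of 46T against WT were 0.27 ± 0.17 for LSM1A, 0.33 ± 0.21 for LSM1B and 0.25 ± 0.15 for LSM6A (SE; limma adjusted p = 0.627, 0.619 and 0.608). For each of these 3 genes all 46T arrays lay above all WT arrays. LSM3A (-0.06), LSM3B (-0.04) and LSM6B (-0.10) overlapped. Members without overlap made up 3 of 6, against 23.3% of all tested probe sets, of which 0.152% were called in this comparison. The 95% intervals of the 6 differences all held 0 and reached 0.79 at most (LSM1B) and -0.73 at least (LSM6B).

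In control seedlings all 6 differences of 46T against WT were below 0, at -0.06 for LSM1B to -0.34 for LSM3B (limma adjusted p = 0.478 to 0.915), and the groups overlapped for each of them. Over all tested probe sets the median difference was 0.07, 0.359% were called, and the groups did not overlap for 15%. Without WT control replicate 1 the sign turned for 5 of the members: the values were 0.12 for LSM1A, 0.13 for LSM1B, 0.02 for LSM3A, 0.06 for LSM6A and 0.15 for LSM6B. LSM3B remained below 0, at -0.03. With replicate 2 left out instead, 5 of the 6 were below 0 and LSM1B was at 0.01. Then 1633 of all tested probe sets were called, against 52 with it, but no member (adjusted p of 0.0754 or more). The common direction of the members against WT control thus rested on WT control replicate 1.

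The dependence of the dehydration response on the line was also tested. The interaction was above 0 for all 6 members, from 0.17 ± 0.31 for LSM3A to 0.39 ± 0.30 for LSM1B (SE), and no member passed (limma adjusted p = 1.0 for each). The median over the members was 0.31, against -0.04 over all tested probe sets. Without WT control replicate 1 the interaction turned to -0.07 for LSM3A, -0.01 for LSM3B and -0.25 for LSM6B. Across the whole table the interaction called 0 of 14495 probe sets (0.00%), with 291 at an unadjusted p below 0.05, and 0 members had an unadjusted p below 0.05. The response of the LSM genes in 46T is therefore not shown to differ from that in WT.

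**Figure D4:**
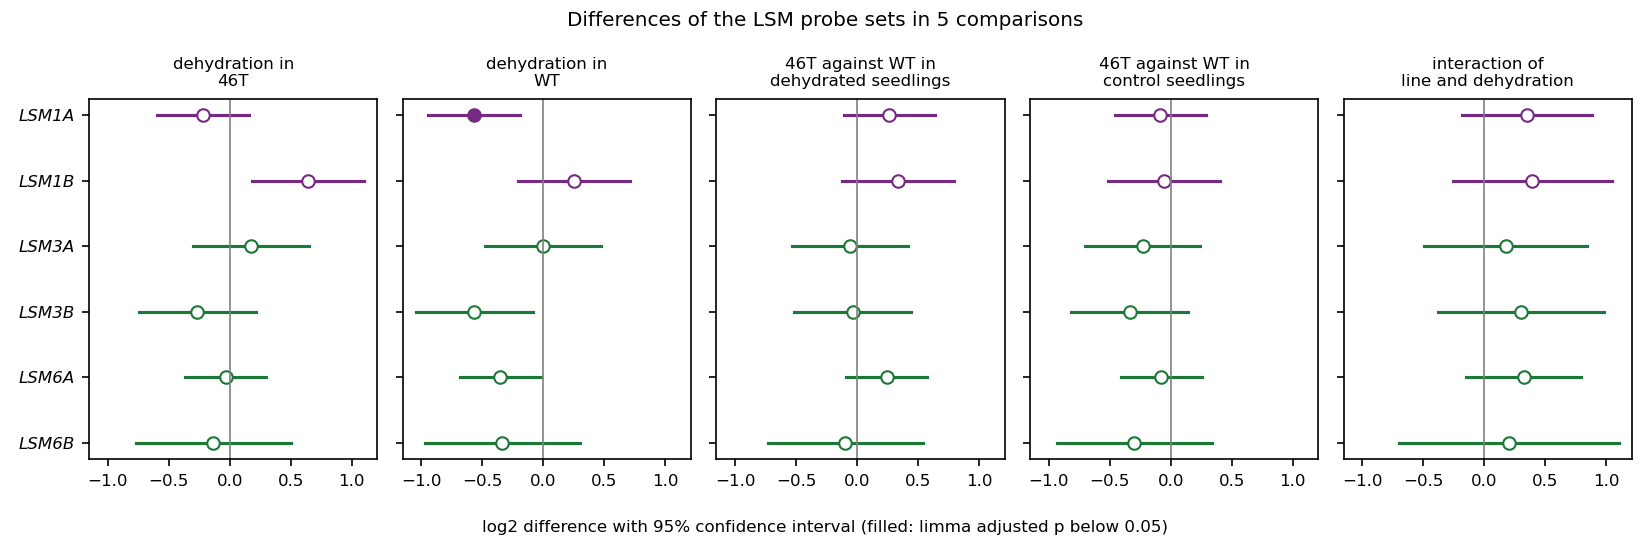
Log2 differences of the 6 LSM probe sets with 95% confidence intervals in 5 comparisons, with the LSM1 pair in purple, LSM3 and LSM6 in green, and a filled point where the limma adjusted p was below 0.05. LSM1A in WT (-0.57) is the 1 filled point, and LSM1A and LSM1B lie on opposite sides of 0 on dehydration in each line.

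How the members varied together was described over the 12 arrays, with no p because the arrays share groups and the offset of WT control replicate 1. LSM3B correlated with LSM6B (Pearson's r = 0.86, Spearman's rho = 0.66), and LSM1A with LSM6A (0.81 and 0.66). LSM1A and LSM1B did not follow each other over all arrays (r = -0.01, rho = -0.19), but they did once group means were subtracted (r = 0.83). All 15 pairs then had r above 0, from 0.25 (LSM1B with LSM6A) to 0.89 (LSM3A with LSM6B). LSM1B and LSM3B had r = -0.26 over all arrays (rho = -0.53), and -0.78 without WT control replicate 1, the strongest of the 15 pairs over those 11 arrays. Without that array the r of LSM3B with LSM6B was 0.39 and that of LSM1A with LSM6A was 0.64. With group means subtracted, the r of LSM1A with LSM1B was 0.74 without it, and that of LSM3A with LSM6B was 0.73.

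Among 7833 other tested probe sets that name 1 gene, the most similar pattern over 12 arrays was that of AT1G36380 for LSM1A (r = 0.96, and 0.92 without WT control replicate 1). For LSM1B it was AT3G07090 (r = 0.89, and 0.91 without that array). For LSM3A it was AT3G05560 (0.93 and 0.86), for LSM3B AT2G44525 (0.95 and 0.88), for LSM6A AT2G31490 (0.92 and 0.89) and for LSM6B AT3G52730 (0.95 and 0.72). The second for LSM6B was the histone H2B gene HTB4 (0.95 and 0.75). The names of most of these loci carry no function in the annotation used. They were picked as the highest of 7833 correlations over arrays that share groups, and joint regulation was not tested.

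Other genes of RNA decay and splicing were read from lists of known components. No other LSM subunit is named by a probe set (0 of 5). Of 13 listed genes for decapping and decay from the 5' end, 4 were tested. They gave 0 calls in each single comparison, with a median of 0.13 on dehydration in 46T and 0.25 in WT. The largest of them in WT was AT3G61240, at 0.50 ± 0.17 (SE; limma adjusted p = 0.0709), followed by AT4G14990 (0.27 ± 0.17). AT1G79090 went the other way and had the smallest p of the list in 46T, at -0.33 ± 0.17 (limma adjusted p = 0.271). In WT it was at -0.17 ± 0.17 (adjusted p = 0.593). Of 6 deadenylation genes 3 were tested, with medians of -0.02 in 46T and 0.26 in WT and 0 calls. AT3G58560 had 0.56 ± 0.18 in WT (adjusted p = 0.0646), next to AT1G02080 (0.26 ± 0.23). On leaving out WT control replicate 1 the median in WT was 0.12 for the decapping genes and -0.11 for the deadenylation genes, with 0 calls. The WT values were then 0.31 for AT3G61240, 0.13 for AT4G14990, -0.21 for AT1G79090, 0.36 for AT3G58560 and -0.11 for AT1G02080. AT3G61240 in WT was called without replicate 2 (0.65, adjusted p = 0.0264). With both lines combined, 3 of the 19 tested genes of the 5 lists were called (15.8%), against 24.7% of all tested probe sets. AT3G61240 rose by 0.40 ± 0.12 (adjusted p = 0.0264) and AT3G58560 by 0.40 ± 0.13 (adjusted p = 0.0393). The call was kept in 16 of 20 alternatives for AT3G61240 and in 10 of 20 for AT3G58560. AT1G79090 was at -0.25 ± 0.12 (adjusted p = 0.159). It was called as lower in 2 of 20 alternatives, among them without WT control replicate 2 (-0.33, adjusted p = 0.0452).

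Of 9 genes of the exosome and of nonsense-mediated decay, 4 were tested, with medians of -0.21 in 46T and -0.03 in WT. RRP41, an exosome core subunit, had -0.28 ± 0.15 in 46T and -0.33 ± 0.15 in WT (SE; limma adjusted p = 0.270 and 0.167). It fell by 0.30 ± 0.10 with both lines together (adjusted p = 0.0450), a call kept in 7 of 20 alternatives and lost without WT control replicate 2 (adjusted p = 0.0717). UPF3, a factor of nonsense-mediated decay, had -0.25 ± 0.19 in 46T and -0.18 ± 0.19 in WT, with no call. The list's median in WT without WT control replicate 1 was -0.31, with RRP41 at -0.31 and UPF3 at -0.30.

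The Sm core, a related protein ring on the other spliceosomal snRNAs, had 7 tested genes of 13. The list's medians were -0.06 in 46T and -0.23 in WT on dehydration, with 0 calls in either. Its lowest value in WT was AT3G11500, at -0.42 ± 0.20 (SE; limma adjusted p = 0.201), and the next smallest p was that of AT4G02840 (-0.30 ± 0.17). Leaving out WT control replicate 1, these were -0.16 and -0.11, and the list's median in WT was -0.04. For the members, the medians were -0.08 in 46T and -0.34 in WT, and for all tested probe sets they were -0.07 and -0.02. The members' median in WT also depended on WT control replicate 1. Without that array LSM1B (0.43), LSM3A (0.24) and LSM6B (0.11) were above 0 in WT. LSM1A (-0.37), LSM3B (-0.26) and LSM6A (-0.22) were below 0, and the median over all tested probe sets was -0.08. LIS, a protein of the U4/U6 snRNP and the 1 tested of 5 listed there, had -0.48 ± 0.24 in 46T and -0.23 ± 0.24 in WT (adjusted p = 0.252 and 0.605). Without WT control replicate 1 LIS was called in both lines, at -0.48 in 46T (adjusted p = 0.0439) and -0.57 in WT (adjusted p = 0.0330), and without replicate 2 its WT value was 0.05. Between the lines, these 5 lists with tested genes gave 0 calls in control and in dehydrated seedlings.

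**Figure D5:**
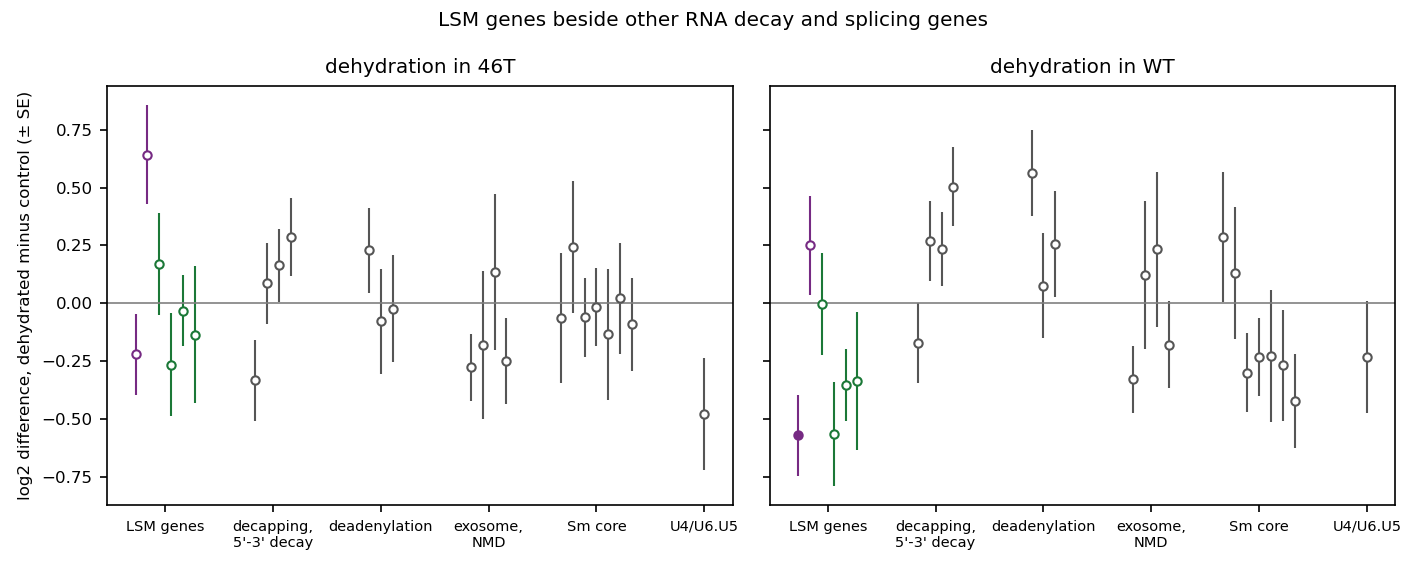
Log2 difference of dehydrated minus control seedlings (± SE) for the LSM genes and the tested genes of 5 lists, in 46T (left) and WT (right), with filled points where the limma adjusted p was below 0.05. LSM1B (0.64) is the highest point in 46T, and LSM1A (-0.57) is the lowest and the 1 filled point in WT.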

How the data were processed

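The authors deposited 1 log2 value per probe set and array, whose signals come from MAS5, per the submitters' processing notes, with no version stated. On the linear scale the trimmed mean was 500.0 to 500.1 on each array, so the table was not normalized again. MAS5 signals of low probe sets vary more on the log2 scale. The 64 control probe sets were left out. Testing covered the 14495 probe sets that exceeded the 40th percentile of an array on 3 or more of the 12 arrays. Group means were fitted over all arrays in R 4.3.3 with limma 3.58.1 (lmFit, eBayes with an intensity trend). P-values are two-sided and adjusted by Benjamini-Hochberg over all tested probe sets, and the threshold for a call was 0.05. SE values are those of this fit. The pipeline was tested on simulated data. Gene names come from the platform annotation, updated through RefSeq. It names none for WRKY46, whose level is not analysed here. The named genes were all 6 members, and up to 4 called, or the 2 of smallest p, from each list. Members and lists were chosen with earlier results of these data known. Same-numbered replicates had correlations of their deviations from -0.12 to 0.35, so the numbers were not taken as pairs.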

Additional observations from a re-analysis of the deposited data

How the results depend on the processing

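Each value was recomputed under 20 or 21 alternatives. Of 744 values of single members, 666 kept their direction and their side of the threshold, 38 lost a call, 9 gained one and 31 changed sign, none of them a call. The cause of these changes was not tested. Array weights (a fit that stopped before its tolerance) called 3469 probe sets on dehydration in WT, 3770 in 46T, 2926 between lines in control, 432 in dehydrated seedlings, 1 for the interaction and 5726 with both lines together. They gave the LSM1 pair against LSM3 and LSM6 -0.14 and LSM1B minus LSM1A -0.11 in the interaction. WT control replicates 1, 2 and 3 had weights of 0.14, 0.30 and 3.84, so the WT control mean rests mainly on replicate 3. Under array weights LSM1B (0.69) and LSM3B (-0.45) gained a call on dehydration in WT, LSM1B in 46T (0.66) and LSM3B with both lines together (-0.35). LSM3A on dehydration in WT was 0.072, LSM1B in the interaction -0.033, and the line differences were 0.24 (LSM1A), 0.36 (LSM1B), 0.041 (LSM6A) and 0.016 (LSM6B) in control, and 0.013 (LSM3A), 0.028 (LSM3B) and 0.041 (LSM6B) in dehydrated seedlings. Fits of the compared groups alone called 751 (WT), 3079 (46T), 14 (control) and 206 (dehydrated). In control seedlings the stricter filter called 32 and median centring 85 (38 higher, 47 lower, against 38 and 14), and quantile normalization gave LSM1B minus LSM1A -0.13. In dehydrated seedlings the pseudocount of 32 called 43 and quantile normalization 36. Median centring split the calls on dehydration in WT into 835 higher and 876 lower, against 1057 and 623, and those with both lines together into 1491 and 2286, against 1771 and 1803. Quantile normalization split the calls in control seedlings into 39 higher and 33 lower. Median centring put the median over all probe sets between lines at -0.098 in control seedlings (as reported 0.069) and at -0.073 in dehydrated seedlings (as reported 0.032). Leaving out single arrays gave 832 to 2379 calls in WT, 769 to 2389 in 46T, 13 to 1633 in control seedlings, 13 to 176 in dehydrated seedlings and 2630 to 4802 with both lines together. For members that changed sign, leaving out single arrays gave these ranges: on dehydration in WT, LSM1B -0.0041 to 0.43, LSM3A -0.21 to 0.24 and LSM6B -0.61 to 0.11. In 46T they were -0.089 to 0.0191 for LSM6A and -0.31 to 0.0190 for LSM6B. Between lines in control seedlings they were -0.28 to 0.12 for LSM1A, -0.31 to 0.13 for LSM1B, -0.44 to 0.016 for LSM3A, -0.16 to 0.056 for LSM6A and -0.57 to 0.15 for LSM6B. In dehydrated seedlings they were -0.17 to 0.048 for LSM3A, -0.11 to 0.039 for LSM3B and -0.27 to 0.058 for LSM6B. In the interaction they were -0.072 to 0.38 for LSM3A, -0.0097 to 0.55 for LSM3B and -0.25 to 0.48 for LSM6B, and with both lines together -0.020 to 0.21 for LSM3A. With the replicate block LSM1A in WT stayed called (adjusted p = 0.0498), and of the members' calls only that of LSM1B with both lines together was lost (adjusted p = 0.0529). The labels state no pairing of the shared numbers. The number of arrays, 3 a group, limits the precision.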
